A study of Mus musculus with 8 samples.

Results

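G6pc2 and Spc25 are 2 of the 24421 genes in each of the 8 count tables, and were taken by name from all of them. They were measured in islet cells of 8-week-old C57BL/6J mice by droplet single-cell RNA sequencing, in which each captured transcript is counted once as a unique molecular identifier (UMI) near its 3′ end. The 4 control samples came from mice without surgery, and the 4 PPTx samples from mice taken 2 days after resection of 50% of the pancreas, so surgery as such had no control of its own. Each sample pooled islets of several mice or held those of 1 mouse. The pair was selected on earlier results of these data, among them a lower G6pc2 level in replicating cells, so the direction of G6pc2, and of any ratio with it, in such cells is a description and is given with no test.

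G6pc2 encodes the islet form of the catalytic subunit of glucose-6-phosphatase, a membrane enzyme of the endoplasmic reticulum that returns glucose-6-phosphate to glucose. Spc25 encodes a subunit of the Ndc80 complex, which anchors spindle microtubules to the kinetochore in mitosis and also holds Ndc80, Nuf2 and Spc24. Genes of this complex are usually expressed in dividing cells, whereas G6pc2 is a gene of mature β-cells.

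The genes lie side by side on mouse chromosome 2 and are transcribed away from each other. In the RefSeq annotation of GRCm38.p6, Spc25 occupies chr2:69193895-69206213 on the minus strand and G6pc2 occupies chr2:69211073-69227993 on the plus strand. Their annotated 5′ ends are 4859 bases apart, with 0 shared bases and 0 genes between them. Since the 3′ ends, where UMIs are counted, face outward, the annotation gives no stretch in which a read could belong to both genes. The promoters are shown because the 2 genes share this interval, each on its own gene's strand, with capitals at matches to 3 motifs, spelled out after them.
Spc25, chr2:69206164-69206463, minus strand: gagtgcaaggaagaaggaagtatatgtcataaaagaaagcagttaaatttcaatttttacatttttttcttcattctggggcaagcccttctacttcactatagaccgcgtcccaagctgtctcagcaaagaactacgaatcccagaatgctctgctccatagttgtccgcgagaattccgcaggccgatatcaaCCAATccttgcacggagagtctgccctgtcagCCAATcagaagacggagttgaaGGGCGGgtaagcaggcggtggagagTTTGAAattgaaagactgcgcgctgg
G6pc2, chr2:69210823-69211122, plus strand: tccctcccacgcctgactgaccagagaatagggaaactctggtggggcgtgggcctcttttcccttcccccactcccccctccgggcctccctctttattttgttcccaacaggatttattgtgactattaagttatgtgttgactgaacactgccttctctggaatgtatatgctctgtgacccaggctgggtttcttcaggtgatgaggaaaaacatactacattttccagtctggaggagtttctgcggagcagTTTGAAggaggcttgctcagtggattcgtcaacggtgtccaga

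The first motif, CCAAT, and the next, which reads TTTGAA, are known from promoters of cell cycle genes, and the last, written GGGCGG, is a GC box. Both strands were searched, and the Spc25 promoter held 2 matches to the first motif, 1 to the next and 1 to the GC box. The printed G6pc2 window held 1 match to the middle one, none to CCAAT and no GC box. Neither window held a TATA box spelled TATAAA. The E-box letters CATCTG were also searched and were in neither. RefSeq lists a further G6pc2 start inside the gene, whose window (chr2:69219699-69219998, plus strand) is not printed. That window held 2 matches to CATCTG and none to the other 4 motifs. UMIs near the 3′ end do not tell which start these cells used. The printed window and the gap given above are those of the outer start. CATCTG occurred in 17.2% of the promoters counted next and TATAAA in 13.6%. Among 32851 RefSeq promoters of the same length, the first motif occurred in 37.4%, the next in 17.9% and the GC box in 35.7%, so single matches are common. A match is a description of the letters, not of a bound site.

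Of 1240 cells, 1232 passed the limits on genes and UMIs, 520 from control and 712 from PPTx samples, with 227439 to 1580152 UMIs per sample and 3328 to 8677 UMIs in the median cell. Only 1 barcode occurred in more than 1 sample. Control replicate 1 stood apart in doublet calls, with 33 of its 65 cells called by Scrublet, its 1 beta-like cell with a Top2a UMI among them, against 1 to 17 cells in each other sample. Clustering left out G6pc2, Spc25, Top2a and the other listed genes, but not the cell type markers. Thus Ins1, Ins2, Iapp, Slc30a8, Ucn3, Pdx1, Nkx6-1 and Mafa were not left out, and they also served to name the beta-like clusters. It gave 902 beta-like cells in 4 clusters, 1 of them led by replication genes, and a cluster of 136 alpha-like cells led by Gcg. An unnamed cluster of 194 cells, called mixed here, was led by Ghrl, Sst, Ppy and stromal genes such as Col3a1. In the mixed cluster, 118 cells had Ppy and 56 had insulin as their most abundant hormone. In beta-like cells Ins1 and Ins2 had UMIs in all 902 cells and Ucn3 in 785. Ins2 also had UMIs in all 136 alpha-like and 194 mixed cells, and Ins1 in 133 and 188 of them. Detection of insulin alone thus does not set the beta-like cells apart. Pdx1 was found in 37 beta-like cells and Mafa in 2, so these 2 transcription factors of β-cells could hardly be seen at this depth. Clusters and class names were rebuilt here and can differ from those of the study.

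G6pc2 was found in nearly every beta-like cell. It gave 12588 UMIs in 889 of 902 beta-like cells (98.6%), at 2057 CPM, that is, UMIs of the gene scaled to a common total of UMIs. In control samples its level was 3135, 2190, 1467 and 1638 CPM, and in PPTx samples 2087, 2825, 1938 and 1933. The groups overlapped, and the highest value, in control replicate 1, was above every PPTx sample. The means were 2108 ± 751 in control and 2196 ± 426 in PPTx samples (SD, n = 4 each).

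Spc25 was found in most beta-like cells as well, although its level was lower. It gave 1709 UMIs in 613 beta-like cells (68.0%), at 279 CPM. Its level was 326, 251, 178 and 192 CPM in control samples and 339, 400, 300 and 256 in PPTx samples. Control replicate 1 lay within the PPTx range and the other 3 control samples lay below it. When every cell was thinned to 2700 UMIs, the share of beta-like cells with an Spc25 UMI was 46.2% ± 7.96 and that with a G6pc2 UMI 97.5% ± 1.51 (SD over samples, n = 8). This left 335 of 358 control and 482 of 544 PPTx beta-like cells, those deep enough.

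Outside the beta-like clusters both genes were lower, but not by the same amount. As clusters were made from the same cells, these differences are a description with no test. G6pc2 gave 54 UMIs in 37 of 136 alpha-like cells (27.2%), at 87.7 CPM, and 285 UMIs in 91 of 194 mixed cells (46.9%), at 282. Spc25 gave 47 UMIs in 37 alpha-like cells (27.2%), at 76.3 CPM, and 42 UMIs in 22 mixed cells (11.3%), at 41.5. The G6pc2 level of beta-like cells was thus 23.5-fold that of alpha-like cells, and the Spc25 level 3.66-fold. Spc25 was higher in beta-like than in alpha-like cells in 8 of 8 samples, by 2.14-fold to 12.8-fold. Median depth was 6140 UMIs in beta-like, 4144 in alpha-like and 4512 in mixed cells.

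**Figure D1:**
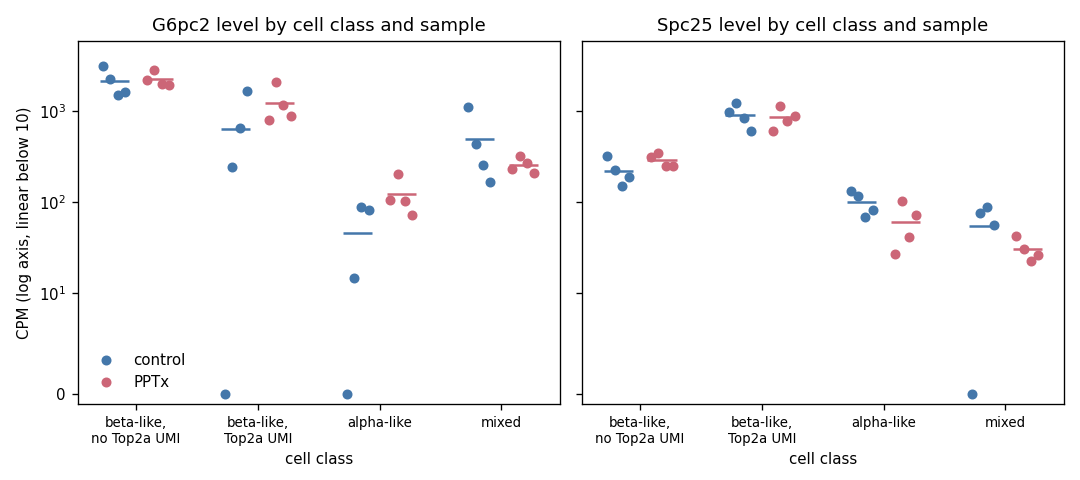
Level of G6pc2 (left) and Spc25 (right) in each sample, in CPM on a log axis that is linear below 10, by cell class, with points for samples and bars for group means. G6pc2 is near 2000 in beta-like cells without a Top2a UMI and under 210 in every alpha-like sample, while Spc25 is highest in beta-like cells with a Top2a UMI.

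In droplets, free RNA of abundant cells adds UMIs to other cells, at about the same proportion for every gene from one source. Per 100 G6pc2 UMIs, beta-like cells held 13.6 Spc25 UMIs (exact binomial 95% interval 12.9 to 14.3, for counting error only), and mixed cells 14.7 (10.4 to 20.4). By group, mixed cells held 22.0 (12.8 to 36.0) against 11.7 (10.7 to 12.7) in beta-like cells of control samples, and 11.3 (6.94 to 17.7) against 14.7 (13.8 to 15.7) in PPTx samples, so the pooled interval covers the beta-like value while that of control samples does not. Alpha-like cells held 87.0 (57.6 to 131), above all of these, with 112 (68.5 to 183) in control and 45.0 (18.0 to 103) in PPTx cells, the latter from 9 Spc25 and 20 G6pc2 UMIs. Of the 136 alpha-like cells, 108 had Gcg and 28 had Ppy as their most abundant hormone. In alpha-like cells Ins2 stood at 1.48% of its beta-like level, Ins1 at 1.13%, G6pc2 at 4.26% and Spc25 at 27.3%. Among 11 of the 14 listed beta-cell genes with at least 600 UMIs in beta-like cells, 1 (Slc30a8, a zinc transporter of insulin granules, at 104%) stood higher than Spc25 by this measure. Of the 11, Ins1, Ins2, Iapp, Slc30a8, Ucn3 and Nkx6-1 were among the markers that named the clusters, so their percentages follow in part from the classing. G6pc2 and Spc25 were kept out of it. The percentages also pool the groups, which differed. Spc25 stood at 81.4 CPM in alpha-like against 205 in beta-like cells of control samples, and at 60.5 against 338 in PPTx samples. For G6pc2 the levels were 72.8 against 1760 in control and 134 against 2293 in PPTx samples. In mixed cells, pooled over the groups, G6pc2 stood at 13.7% and Spc25 at 14.9% of their beta-like level, between Ucn3 at 10.8% and Ins2 at 23.0%. In control samples G6pc2 stood at 304 CPM in mixed against 1760 in beta-like cells, and Spc25 at 66.9 against 205. In PPTx samples they stood at 272 against 2293 and at 30.9 against 338. The 56 mixed cells with mostly insulin held 204 of the 285 G6pc2 and 30 of the 42 Spc25 UMIs of the cluster, at 702 and 103 CPM. In the 118 mixed cells with mostly Ppy the levels were 105 and 17.1 CPM, from 68 and 11 UMIs. Of the alpha-like cells, 26 held Spc25 but no G6pc2 UMI, 26 held G6pc2 but no Spc25 UMI, 11 held both and 73 neither.

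**Figure D2:**
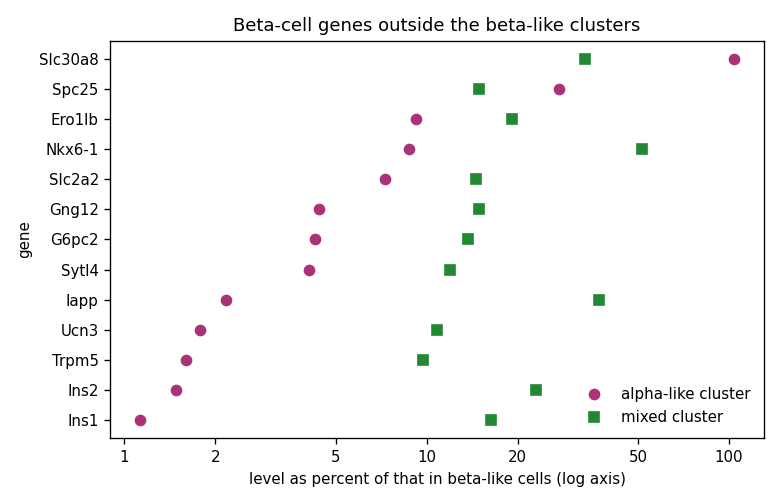
Level of each gene in the alpha-like cluster (circles) and the mixed cluster (squares) as a percentage of its level in beta-like cells, on a log axis, for G6pc2, Spc25 and the 11 listed beta-cell genes with at least 600 UMIs in beta-like cells. In alpha-like cells Spc25 lies at 27.3% and G6pc2 at 4.26%, whereas in the mixed cluster they lie at 14.9% and 13.7%. All percentages pool control and PPTx cells, between which the levels of both genes differ, as given in the text.

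Splitting all cells by their most abundant hormone, a choice made after seeing the data, gave cells of unequal origin, since 95 of 114 cells with mostly Gcg came from control and 110 of 148 with mostly Ppy from PPTx samples. Spc25 was found in 31.6% of the former at 93.6 CPM and in 8.11% of the latter at 23.6, and it was higher in Gcg cells within each group, at 98.3 against 29.4 CPM in control and 76.1 against 21.2 in PPTx samples. Pooled G6pc2 levels were alike, at 99.7 and 98.2 CPM, but within groups Gcg cells stood higher, at 77.6 against 41.96 in control and 181 against 122 in PPTx samples. Spc25 UMIs per 100 G6pc2 UMIs were 127 (76.4 to 212) in Gcg and 70.0 (22.6 to 204) in Ppy cells of control samples, with intervals that overlap, and 42.1 (15.9 to 101) and 17.4 (8.57 to 32.4) in PPTx samples, which overlap as well. Of the 19 Spc25 UMIs in Ppy cells, 5 lay in 1 beta-like cluster cell of control replicate 2 that held Top2a and no G6pc2 UMIs. In the mixed-cluster Ppy cells the ratio was 16.2 (7.71 to 30.8), which covers the beta-like value. In 15 cells with mostly Sst, 0 Spc25 UMIs were found.

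The next comparison asked how the pair behaved in beta-like cells that replicate, taken as cells with at least 1 UMI of Top2a, a DNA topoisomerase of dividing cells. They numbered 38 of 902 beta-like cells, 9 in control and 29 in PPTx samples, and 1 of them was called a doublet. In these cells Spc25 was higher and G6pc2 lower. Gcg was also higher in them when pooled, at 1.23% of UMIs against 0.0163% in cells without a Top2a UMI. This came from control replicate 3 (2.69%) and PPTx replicate 2 (2.78%), while every other sample stood at 0.0163% or below. In 3 of the 38 cells the most abundant hormone was not insulin. Without these 3, Gcg stood at 0.570%, G6pc2 at 1268 CPM and Spc25 at 894. That Gcg value rests on PPTx replicate 2, at 1.99%, while every other sample stood at 0.0131% or below. Ppy stood at 0.802% with the 3 cells and at 0.0758% without them, against 0.122% in insulin cells without a Top2a UMI. Pooled over samples, Spc25 stood at 881 CPM in cells with and 249 in cells without a Top2a UMI, and G6pc2 at 1230 and 2099. The 38 cells, 4.21% of beta-like cells, held 15.3% of the Spc25 UMIs of beta-like cells and 2.91% of the G6pc2 UMIs.

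Spc25 was higher in cells with a Top2a UMI in 8 of 8 samples, by 1.92-fold to 5.66-fold. Among the 5 samples with at least 2 such cells, Spc25 stood at 1224 CPM against 224 in control replicate 2, 851 against 150 in control replicate 3, 607 against 315 in PPTx replicate 1, 1152 against 346 in PPTx replicate 2 and 785 against 252 in PPTx replicate 3. In the same samples G6pc2 stood at 245 against 2245, 649 against 1501, 797 against 2200, 2087 against 2878 and 1171 against 2014. The levels did not overlap for Spc25, and G6pc2 was lower in cells with a Top2a UMI in 5 of 5 samples, and in 7 of all 8. In edgeR's quasi-likelihood test over these samples with Benjamini-Hochberg adjustment, Spc25 rose by 1.57 ± 0.21 on the log2 scale (SE, adjusted p = 8.1e-12). The fitted value for G6pc2, for which the pair was chosen, was -1.44 ± 0.32. With beta-like cells taken by hormone content, the values were 1.62 ± 0.20 and -1.03 ± 0.20 (edgeR adjusted p = 5.6e-10 for Spc25). The pair was chosen with earlier results of these data known, and both Spc25 and Top2a are genes of dividing cells. These p-values for Spc25 are therefore no independent support. Of 2202 genes tested, 7.31% passed at an adjusted p of 0.05, with 5.04% higher and 2.27% lower. Cells with a Top2a UMI were deeper, with a median of 7522 against 6095 UMIs, and among cells with at least 2700 UMIs the values were 1.58 and -1.42. In 3 samples the group with a Top2a UMI was 1 cell, with G6pc2 at 0 in control replicate 1 and at 1666 against 1638 CPM in control replicate 4.

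The ratio of the genes changed more than either gene. In cells without a Top2a UMI there were from 9.97 to 11.5 Spc25 UMIs per 100 G6pc2 UMIs in control and from 12.0 to 14.3 in PPTx samples. In cells with a Top2a UMI there were 500, 131, 76.1, 55.2 and 67.0 in the 5 samples in the order above. Every one of these lay above every sample of the other cells. The ratio was 9.69-fold higher in geometric mean, higher in 5 of 5 samples. As G6pc2 is its denominator, part of this was fixed by the choice of the pair, and no test is given. Control replicate 2, whose 2 cells held 3 G6pc2 UMIs, gave the highest value, and without it the mean difference was 2.68 in place of 3.28 on the log2 scale. Of these 2 cells, 1 had mostly Ppy and held none of the G6pc2 UMIs. Among beta-like cells with mostly insulin, a choice made after seeing the data, 4 samples had at least 2 cells with a Top2a UMI and the difference was 2.68, positive in all 4.

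Pooled over the groups, the ratio was similar among the beta-like clusters outside replication. It was 10.9, 11.8 and 11.1 per 100 in the clusters of 341, 317 and 189 cells, with overlapping counting intervals, while their Spc25 level ranged from 199 to 271 CPM. By group it was less even, as given with the PPTx comparison. In the replication-led cluster of 55 cells it was 63.6 (55.3 to 73.1), and in the 22 of its cells without a Top2a UMI it was 35.5 (27.0 to 46.2).

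**Figure D3:**
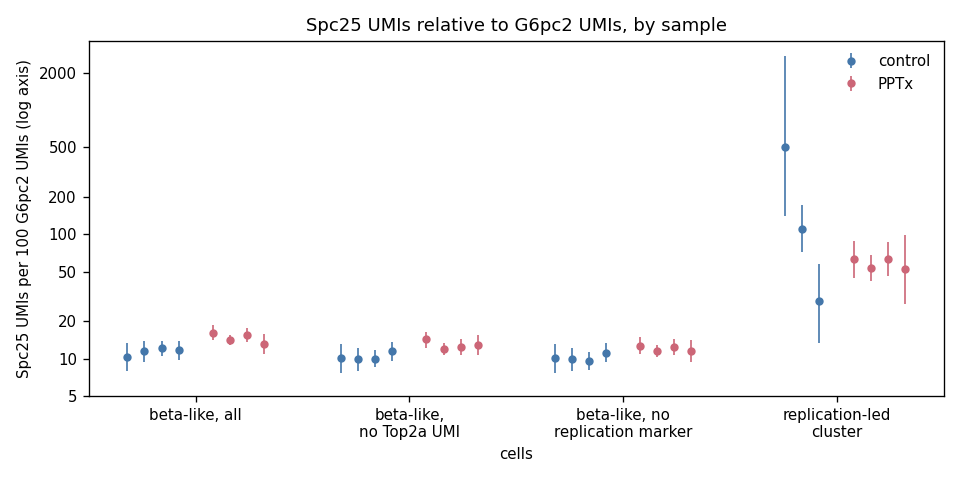
Spc25 UMIs per 100 G6pc2 UMIs in each sample on a log axis, with exact binomial 95% intervals, for all beta-like cells, those without a Top2a UMI, those without UMIs of 10 replication markers, and the replication-led cluster. PPTx samples lie above control samples in each of the first 3 sets, and control replicate 1, whose single replication-led cell held no G6pc2 UMI, is not drawn in the last.

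The partners of Spc25 in the Ndc80 complex were seldom detected in beta-like cells without a Top2a UMI. Among 864 beta-like cells without one, Spc25 was found in 578 (66.9%), Spc24, its direct partner in the complex, in 22 (2.55%), Ndc80 in 2 (0.231%) and Nuf2 in 0, which allows a share of cells with a UMI of up to 0.347%. Among the 38 cells with a Top2a UMI, Spc25 was found in 35 (92.1%), Spc24 in 22 (57.9%), Ndc80 in 10 (26.3%) and Nuf2 in 1 (2.63%), so Nuf2 was at the limit of detection in both. There were 55.7 Spc25 UMIs per Spc24 UMI in the former and 6.55 in the latter, as UMIs per captured transcript with no scaling to length. In 559 cells without a Top2a UMI, Spc25 was found with no UMI of the other 3 subunits. Spc24 stood at 134 CPM in cells with and 4.47 in cells without a Top2a UMI, and it passed the count filter through the former, so no test of it is given. Ndc80 and Nuf2 were too low to be tested.

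The other kinetochore genes looked like Spc24 rather than Spc25 in cells without a Top2a UMI. Of 26 listed, 24 were found in under 5% of these cells, and the exceptions were Zwint (27.3%) and Bub3 (20.1%), a spindle checkpoint protein. The level of all 26 was higher in cells with a Top2a UMI, while 43.2% of the 2202 genes tested had a higher fitted value. Some of the 26 had few UMIs, such as Casc5 with 2 and Bub1 with 4 in all beta-like cells. Birc5, Cenpa and Cdca8 are also among the 10 replication markers. The edgeR filter left 7 of the 26, of which 5 rose, where 5.04% of all genes tested did. They were Birc5, Cdca8, Cenpm, Cenpw and Mad2l1, by 4.42 to 6.83 on the log2 scale. However, low genes passed the filter through the cells in which they are high, so this count is no support. Zwint stood at 0.95 (adjusted p = 0.072) and Bub3 at 1.07 (adjusted p = 0.059).

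Among 19 genes of glucose-6-phosphate metabolism and glucose sensing, 3 others than G6pc2 were tested in cells with against without a Top2a UMI, and none passed. Slc2a2, the glucose transporter of mouse β-cells, stood at -0.46 ± 0.26 (adjusted p = 0.36). G6pc, the liver form of the subunit, gave 0 UMIs, and Slc37a4, the transporter that feeds glucose-6-phosphate to the enzyme, was found in 204 of 864 beta-like cells without a Top2a UMI (23.6%) and in 4 of 38 with one (10.5%). Of the 14 listed beta-cell genes, 11 were tested and 2 fell, where 2.27% of all genes tested did. They were Ucn3, a peptide of mature β-cells, by 0.96 and Ero1lb, an oxidase that helps fold proinsulin, by 1.01 (adjusted p = 0.0014 and 0.0058).

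The genes on either side of the pair were hardly seen in beta-like cells. Nostrin, beyond Spc25, gave 21 UMIs in 15 beta-like cells and stood higher in alpha-like (29.2 CPM) and mixed cells (25.7) than in beta-like cells (3.43). Abcb11, beyond G6pc2, gave 9 UMIs and Cers6 8 UMIs, all in beta-like cells. Dhrs9, Lrp2 and 4932414N04Rik gave 0.

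The third comparison was PPTx against control. In beta-like cells, the G6pc2 level did not differ beyond the spread between samples, with a log2 fold change of -0.01 ± 0.18 (SE, edgeR adjusted p = 1.0). Spc25 stood at 0.42 ± 0.17, with an unadjusted p of 0.024 and an adjusted p of 0.43 over 5601 genes, so it did not pass. Of these genes 0.286% passed, 0.161% higher and 0.125% lower, and neither member was among them. After thinning to 2700 UMIs, the share of beta-like cells with an Spc25 UMI was 42.7% ± 9.34 in control and 49.6% ± 5.34 in PPTx samples (SD, n = 4 each), and the groups overlapped (exact two-sided permutation p = 0.286). The difference of 6.93 points was 10.9 without control replicate 1, 4.22 without control replicate 3 and 3.37 with no thinning. None of the 13 tested genes of glucose sensing passed. Trpm5, a cation channel, was the only beta-cell gene of 11 tested that changed, and fell by 1.04 ± 0.19 (adjusted p = 0.0082).

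Over all beta-like cells the ratio of the pair did not overlap between groups. In all beta-like cells there were 10.4, 11.5, 12.2 and 11.7 Spc25 UMIs per 100 G6pc2 UMIs in control samples, and 16.2, 14.2, 15.5 and 13.3 in PPTx samples. The means were 11.4 ± 0.743 and 14.8 ± 1.33 (SD, n = 4 each), a 1.29-fold difference in geometric mean. The exact two-sided permutation p was 0.0286, the smallest that 4 against 4 samples allow, and 0.0857 after Benjamini-Hochberg adjustment over 3 exact tests planned together, this one, the share of cells with Spc25 and the ratio by Top2a, which is otherwise given as a description. Without control replicate 1 the p was 0.0571, and without the cells called by Scrublet it was 0.0286 (exact tests). PPTx samples held more cells with a Top2a UMI, so the ratio was taken again without them, which gave a 1.25-fold difference. Without cells holding any UMI of 10 replication markers and without the replication-led cluster, a set chosen after seeing the data, it was 1.18-fold, with 9.62 to 11.2 in control and 11.5 to 12.8 in PPTx samples.

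The difference in the ratio did not hold within each beta-like cluster. Control and PPTx cells fell into these clusters unequally, with 151 of 358 control and 190 of 544 PPTx cells in the largest, 84 and 233 in the next, and 110 and 79 in the smallest of the 3 outside replication. In the largest, pooled ratios were 10.5 in control and 11.3 in PPTx cells, with a difference over samples of 0.19 on the log2 scale (exact permutation p = 0.343). In the next they were 8.84 (7.34 to 10.6) and 12.8 (11.7 to 13.9), and the difference was 0.66 (exact permutation p = 0.0857). In the smallest they were 11.9 and 9.34, so that the direction turned, with a difference of -0.56 (exact permutation p = 0.171). Samples of the groups overlapped in all 3, and some held few cells, down to 1 in control replicate 1 in the second and 5 in PPTx replicate 3 in the smallest. These splits were chosen after seeing the data.

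In cells outside the beta-like clusters the PPTx effect on Spc25 did not pass the test on its own. The Spc25 level was 64.0, 96.6, 73.3 and 69.4 CPM in control and 39.3, 41.5, 26.3 and 33.3 in PPTx samples, from 2 to 25 UMIs per sample. Every PPTx sample lay below every control sample, on these few UMIs, and the share of all genes separated in this way was not counted. The log2 fold change was -1.04 ± 0.33 (edgeR adjusted p = 0.33), where 0.338% of 2367 genes passed, and G6pc2 stood at 0.38 ± 0.32 (adjusted p = 0.81). The G6pc2 value was 0.69 without control replicate 1, 0.12 without control replicate 4, 0.13 without control replicate 3 and 1.02 by hormone content, and it turned to -0.51 with the mixed cluster alone, and none of these passed. The difference between the PPTx effects in beta-like and other cells was 1.61 ± 0.35 for Spc25 (edgeR, log2, adjusted p = 0.005). In that test 0.433% of 4159 genes passed. For G6pc2 the difference was -0.32 ± 0.25 (edgeR adjusted p = 0.82), and it turned to 0.39 with the mixed cluster alone (adjusted p = 0.92). The G6pc2 difference was -0.58 with the alpha-like cluster alone and -0.18 without control replicate 4, and neither passed.

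The make-up of the other cells differed between the groups. Alpha-like cells, which had more Spc25, were 65.4% of 162 other cells in control and 17.9% of 168 in PPTx samples. Within the alpha-like cluster, pooled Spc25 was 81.4 CPM in control and 60.5 in PPTx samples, and within the mixed cluster 66.9 and 30.9. With the mixed cluster alone as other cells, a choice made after seeing the data, the difference of the PPTx effects was 1.62 ± 0.50 with an adjusted p of 0.24, and with the alpha-like cluster alone it was 1.14 ± 0.57 with an adjusted p of 1.0 (edgeR). Without control replicate 3 it was 1.53 with an adjusted p of 0.11. The fits with a single cluster rest on few UMIs, with 9 of Spc25 in the alpha-like cells of PPTx samples. The count filter left Spc25 out of either cluster alone, so it entered these fits through the beta-like cells. The lost calls do not show that the difference is absent, and the values do not show that it holds within a cluster.

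The last question was whether the genes go together from cell to cell. Over the beta-like cells of each sample, the correlation of depth-corrected values (Pearson residuals) was 0.31, 0.14, 0.07 and 0.21 in control samples and -0.06, 0.10, -0.07 and 0.11 in PPTx samples. The mean was 0.10, against a median of 0.02 for the other genes. Cells of one sample share a library, so these are descriptions with no p. In cells outside the beta-like clusters the mean was 0.11, from -0.17 to 0.43 and positive in 4 of 8 samples, on few UMIs. Spc25 ranked 45th of 2277 genes by likeness to G6pc2, and the 5 genes most like G6pc2 were Scg2, a granule protein, Prlr, the prolactin receptor, Kif5b, Ero1lb and Iapp (mean r 0.17 to 0.24). By likeness to Spc25, G6pc2 ranked 102nd. The 5 genes most like Spc25 were Tubb5, a tubulin, Arl6ip1, Tmpo, Dut, an enzyme of nucleotide metabolism, and Calm2 (0.21 to 0.32).

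Without cells with a Top2a UMI, the set planned beforehand, the correlation of the pair was 0.23 in mean, positive in 8 of 8 samples and 0.03 at the lowest. Without cells holding replication marker UMIs, a set chosen after seeing the data, the correlation was 0.24 in mean. It was 0.36, 0.39, 0.44 and 0.21 in control and -0.04, 0.21, 0.13 and 0.20 in PPTx samples. It was positive in 7 of 8, and the lowest control value (0.212) was just above the highest PPTx value (0.208). In these cells, G6pc2 was the gene most like Spc25 of 2277 genes, and Spc25 was 2nd to Scg2 by likeness to G6pc2. Their Spc25 UMIs rose from a mean of 0.390 in 59 cells with 1 to 3 G6pc2 UMIs to 1.86 in 135 cells with 16 to 20 and 3.63 in 56 cells with 31 or more. Depth rose with it, from a median of 2864 to 7813 and 10208 UMIs, and its part in this rise was not tested here. Cells with a Top2a UMI held more Spc25 in every range of G6pc2 UMIs in which both kinds were found, for example 5.33 in 6 cells with 16 to 20.

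**Figure D4:**
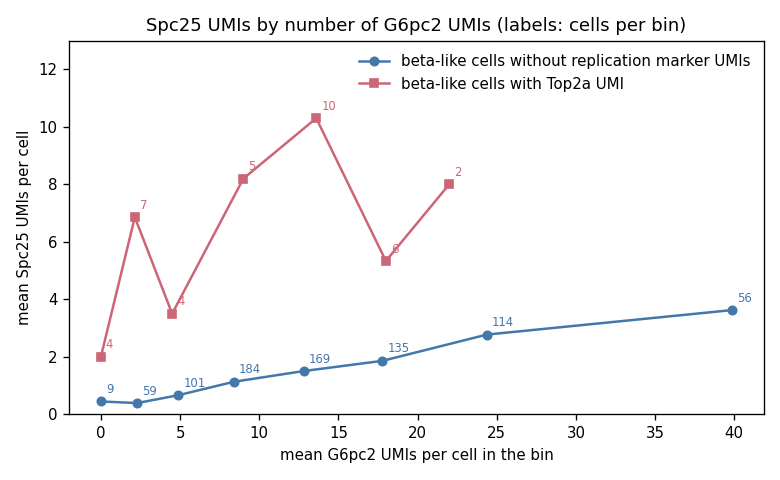
Mean Spc25 UMIs per cell against mean G6pc2 UMIs per cell in bins of G6pc2 UMIs, for beta-like cells without replication marker UMIs (circles) and with a Top2a UMI (squares), with the number of cells beside each point. The former rise from under 0.5 to 3.63, and the latter lie above them in every bin they share.

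The pair also went together across samples. In beta-like cells without a Top2a UMI, Pearson's r of the levels over 8 samples was 0.86 (permutation p = 0.0068) and Spearman's rho 0.83 (permutation p = 0.015), in exact tests of 1 relation. Without the 2 samples farthest from the median G6pc2 level, control replicate 1 and PPTx replicate 2, r was 0.81. Among 2277 genes, Spc25 ranked 58th by this measure and the median gene stood at 0.22. Levels of both genes were lower in deeper samples (r with median depth -0.66 for G6pc2 and -0.54 for Spc25), whose part was not tested. With the mean of its group taken from each level, a step added after seeing the data, r was 0.96 (p = 0.0017, the smallest possible) and rho 0.90 (p = 0.0035) in exact permutation tests within groups. No value for other genes is given by this measure, so it does not say whether the relation is particular to the pair.

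**Figure D5:**
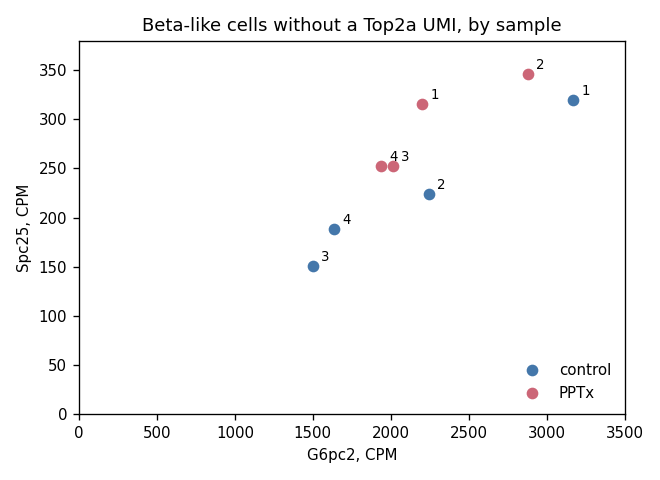
Spc25 against G6pc2 level in beta-like cells without a Top2a UMI, in CPM, with 1 point for each sample labelled by replicate number. Both levels rise from control replicate 3 (1501 and 150) to control replicate 1 and PPTx replicate 2, with r = 0.86.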

How the data were processed

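Islet cells of 8 samples were sequenced in droplets, on a ddSEQ isolator by the methods but with a Chromium kit by the labels. Reads were aligned to mm10, then filtered and assigned to barcodes, and UMIs were counted with Cell Ranger by the authors, who deposited the raw counts of each sample as 1 table. The submitters' processing notes name bcl2fastq. Filtering on 100 to 3000 genes and on 100 to 20000 UMIs, limits taken from the methods, removed 8 cells. No kept cell had under 2005 UMIs, and the settings of that filtering are not given in the sources used here.

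Seurat 5.3.0 clustered cells on 7 dimensions at resolution 0.5 from 2000 variable genes, of which 33 were dropped because they belong to the lists used here. Clusters were classed by the marker list that led in them, with an exception. The mixed cluster was led by the list of PP-cell genes but was left unnamed. The replication-led cluster was led by the beta-cell list, and takes its name from its top genes, such as Top2a and Cdk1. Doublets were called by Scrublet (scanpy 1.11.5, expected rate 0.06), marking 85 cells, and were kept except in an alternative. Counts were summed per sample and class, filtered by filterByExpr, scaled by TMM and tested with edgeR 4.0.16 (quasi-likelihood, Benjamini-Hochberg), with DESeq2 1.42.0 as an alternative. Cells with and without a Top2a UMI were compared within samples with at least 2 of the former. Ratios and shares were tested by exact permutation or sign flips over samples. Thinned shares are expected values over random draws of 2700 UMIs. Correlations used Pearson residuals (theta 100) and were ranked among genes found in at least 20% of beta-like cells. The fits were tested on simulated data with known changes. All tests are two-sided. Nothing says whether samples shared mice or days, so p-values measure the spread between these samples. Intervals and limits cover counting error only.

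The named genes are the members, Top2a, genes of the fixed lists and the 5 genes most correlated with each member. Values of some listed genes are not reported here. The members and lists were chosen with earlier results of these data known. Promoters and gene positions come from RefSeq (GRCm38.p6, the same assembly as mm10). Python 3.11.15 and R 4.3.3 were used.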

Additional observations from a re-analysis of the deposited data

Results flagged for a closer look

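In beta-like cells without a Top2a UMI, control replicate 4 held 11.5 Spc25 UMIs per 100 G6pc2 UMIs, apart from the other 3 control samples at 9.97 to 10.1, and still below every PPTx sample. It was the only sample set apart in 59 groups of 4 samples examined, and chance sets apart about 1 in 20 such groups.

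The PPTx effect on Spc25 differed between beta-like and other cells by 1.61 on the log2 scale (edgeR adjusted p = 0.005). It was tested as an interaction within samples, and the adjusted p ranged from 0.0061 to 0.11 when samples were left out in turn and was 0.24 and 1.0 when the other cells were taken from the mixed or the alpha-like cluster alone.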

How the results depend on the processing

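In cells with a Top2a UMI, Spc25 kept direction and call and G6pc2 its direction under all 12 alternatives each, with Spc25 between 1.04 and 1.75 and G6pc2 between -1.95 and -1.03. The G6pc2 difference between PPTx and control in beta-like cells was near 0 and changed sign without effect on its call, at 0.0442 with no low-count filter, 0.0303 with the replicate block, 0.0158 without cells with a Top2a UMI, 0.0132 with no filter on cells, 0.000475 without Scrublet calls, 0.0126 with 15 principal components, 0.0285 without cells holding replication marker UMIs, and from -0.13 to 0.19 when samples were left out in turn. With the mixed cluster alone it was -0.51 in other cells and 0.39 for the difference of effects. The Spc25 difference of effects lost its call at 1.14 with the alpha-like and 1.62 with the mixed cluster alone, fewer cells in both, and ranged from 1.53 to 1.69 without single samples.

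Same-numbered samples deviated together weakly (r 0.04 to 0.16, over 0.1 in 1 of 4, against -0.13 to 0.06 for samples of different number), and no label says what a number marks, so numbers were not taken as pairs. With the replicate block the ratio of the pair in PPTx against control stayed at 0.37, with p = 0.125 in an exact sign-flip test, the smallest 4 pairs allow, and it ranged from 0.32 to 0.42 without single samples. With the block Spc25 stood at 0.41 in beta-like and -1.14 in other cells, both still uncalled, and 57 genes were called in beta-like cells. Within single beta-like clusters, and without the block, the log2 difference of the ratio was 0.19, 0.66 and -0.56, without passing, and the cause was not tested. The ratio by Top2a, a description, was 3.05 by replication markers and 2.998 with 1 cell as the minimum, over 7 samples each, and ranged from 2.68 to 3.55 without single samples.

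Genes called in beta-like cells were 16, with 26 by DESeq2, 73 with no filter and 4 to 26 without single samples. In other cells they were 8, with 41 with no filter, 5 without hormone genes, 0 and 2 in the alpha-like and mixed clusters alone, and 0 to 13 without single samples. For the difference of effects they were 18, with 10 by DESeq2, 1 and 4 with the alpha-like and mixed clusters, and 5 to 19 without single samples. By Top2a they were 161, with 438 with no filter, 67 with 1 cell as the minimum and 110 to 161 without single samples. At an unadjusted p under 0.05, 26 genes passed in the alpha-like cluster. The cause of these shifts was not tested.

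The log2 fold of G6pc2 between beta-like and other cells was 3.23, and 4.77 by hormone content, 4.81 by the most abundant hormone and 2.30 with 15 principal components. Without Scrublet calls, these levels rest on 7 samples. The Spc25 detection gap was 35.2 points, and 50.2 without thinning. The correlation of the pair moved from 0.10 to 0.24 without cells holding replication marker UMIs, a set chosen after seeing the data. Spc25 could not be fitted in other cells classed by hormone content or taken from either cluster alone, since the filter left it out. With 4 samples a group, exact tests could not go below 0.0286, and Nuf2 gave too few UMIs to be compared.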
